A study of Mus musculus with 6 samples.

Results

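The 8 genes described here are regulators and markers of the trophoblast, the lineage that forms the fetal part of the placenta. They are Cdx2, Elf5, Tfap2c, Gata3, Hand1, Esx1, Gcm1 and Tpbpa. Every probe other than control spots whose gene name on the array mapped to 1 of these symbols was taken, which gave 11 probes, among 41006 probes for 37217 genes or unnamed transcripts in all. Cdx2, Gcm1 and Hand1 had 2 probes each and the other genes 1 each. Their RNA was measured in 3 cultured mouse cell types on 6 Agilent arrays that read 2 dyes, with 2 biological replicates per cell type according to the series' design text.

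Multipotent adult progenitor cells (MAPC) are adherent cells grown from bone marrow. Both MAPC arrays carry the label clone 2 with high Oct4, so they represent 1 clone, and no p-value below covers differences between MAPC clones. That marrow was depleted of CD45+ and Ter119+ cells after 4 weeks and replated at 10 cells per well. It grew in 5% oxygen with 2% serum, EGF, PDGF-BB and LIF for over 80 population doublings. Embryonic stem cells (ESC, C57BL/6) were kept with 15% serum and LIF on irradiated embryonic fibroblasts, and were plated without that feeder layer before RNA was taken. Neurospheres (NS, C57BL/6) are floating clusters of neural progenitors, here from E11.5 embryonic forebrain, grown with bFGF and EGF. Culture medium, oxygen and cell type change together, so they cannot be told apart in any comparison. Each sample was labelled with Cy3 and hybridized with a Cy5-labelled reference that pools RNA of 11 mouse cell lines, in the same dye orientation on all 6 arrays. Values are log2 ratios of sample to this reference, so on a bright spot 0 means the level of the pool and not absence. An offset of 50 intensity units was added in both dyes, which draws the ratio of a dim spot toward 0. A value near 0 on a dim spot can therefore also come from a signal near background. Esx1 on the second NS array, for example, had a log2 ratio of -0.19 with signals of 12.1 in the sample and 52.8 in the reference.

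In the mouse blastocyst the outer cells become trophectoderm under Cdx2, Gata3 and Tfap2c, while the inner cells give rise to the embryo and to embryonic stem cells. Elf5 then sustains trophoblast stem cells, and later genes divide the placenta into layers. Gcm1 and Esx1 act in the labyrinth, where maternal and fetal blood exchange nutrients, Hand1 drives trophoblast giant cells, and Tpbpa marks the spongiotrophoblast between them. Several of these genes also work elsewhere, for example Gata3 in T cells and Tfap2c in germ cells.

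The probes are 60-base oligonucleotides whose sequences come from the deposited scanner files. Shown are the probes of the 3 genes that separated the cell types by at least 2-fold, the Elf5 probe, whose ESC arrays disagreed, and both Hand1 probes, which gave different answers. Capitals mark AATAAA or ATTAAA on the strand given, the 6-letter signals that often precede the end of a messenger RNA.
Tfap2c: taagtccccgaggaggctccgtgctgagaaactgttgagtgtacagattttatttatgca
Esx1: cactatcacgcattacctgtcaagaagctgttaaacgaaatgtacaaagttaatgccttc
Gata3: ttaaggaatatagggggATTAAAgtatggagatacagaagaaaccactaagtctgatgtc
Elf5: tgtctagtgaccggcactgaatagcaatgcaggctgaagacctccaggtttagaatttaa
Hand1, brighter probe: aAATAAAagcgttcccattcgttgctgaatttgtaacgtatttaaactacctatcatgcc
Hand1, dimmer probe: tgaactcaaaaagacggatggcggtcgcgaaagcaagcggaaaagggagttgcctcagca
Both strands of the probes were searched for these letters. On the strand given, AATAAA stood in 6.98% of all 41006 probes and ATTAAA in 3.33%, and 10.1% held either. On the other strand the shares were 3.47% and 2.34%, and the Tfap2c probe held AATAAA there. Among the 11 probes the brighter Hand1 probe and the Gata3 probe held such a signal on the strand given. The brighter Hand1 probe holds 35% G and C bases and the dimmer one 53.3%. Where in its transcript a probe lies was not determined here.

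Between 91.9% and 99.6% of probes carried the scanner software's mark for a signal well above background in the sample channel, but so did 0% to 47.5% of the 314 negative control spots of an array. Precision is limited by the number of arrays. Background-subtracted signals are therefore set beside those control spots. Their 99th percentile lay between 9.07 and 27.0 intensity units and their highest value between 10.2 and 165 across arrays. Of the 11 probes, 8 exceeded the 99th percentile on all 6 arrays, as did 85.3% of all probes. The brighter Gcm1 probe exceeded the highest control spot on all 6 arrays, as did 38.5% of all probes. As a check of the labels, 8 of 9 pluripotency genes were higher in ESC than in NS, and 8 of 8 neural progenitor genes were higher in NS than in ESC. Of all genes 38.2% differed between ESC and NS at an adjusted p under 0.05 in limma, and 19.8% were higher in ESC. The pluripotency gene that did not pass was Sox2, with a log2 difference of -0.08. No list of defining MAPC markers was used. In bulk RNA fewer cells of a kind and less RNA per cell cannot be told apart.

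**Figure D1:**
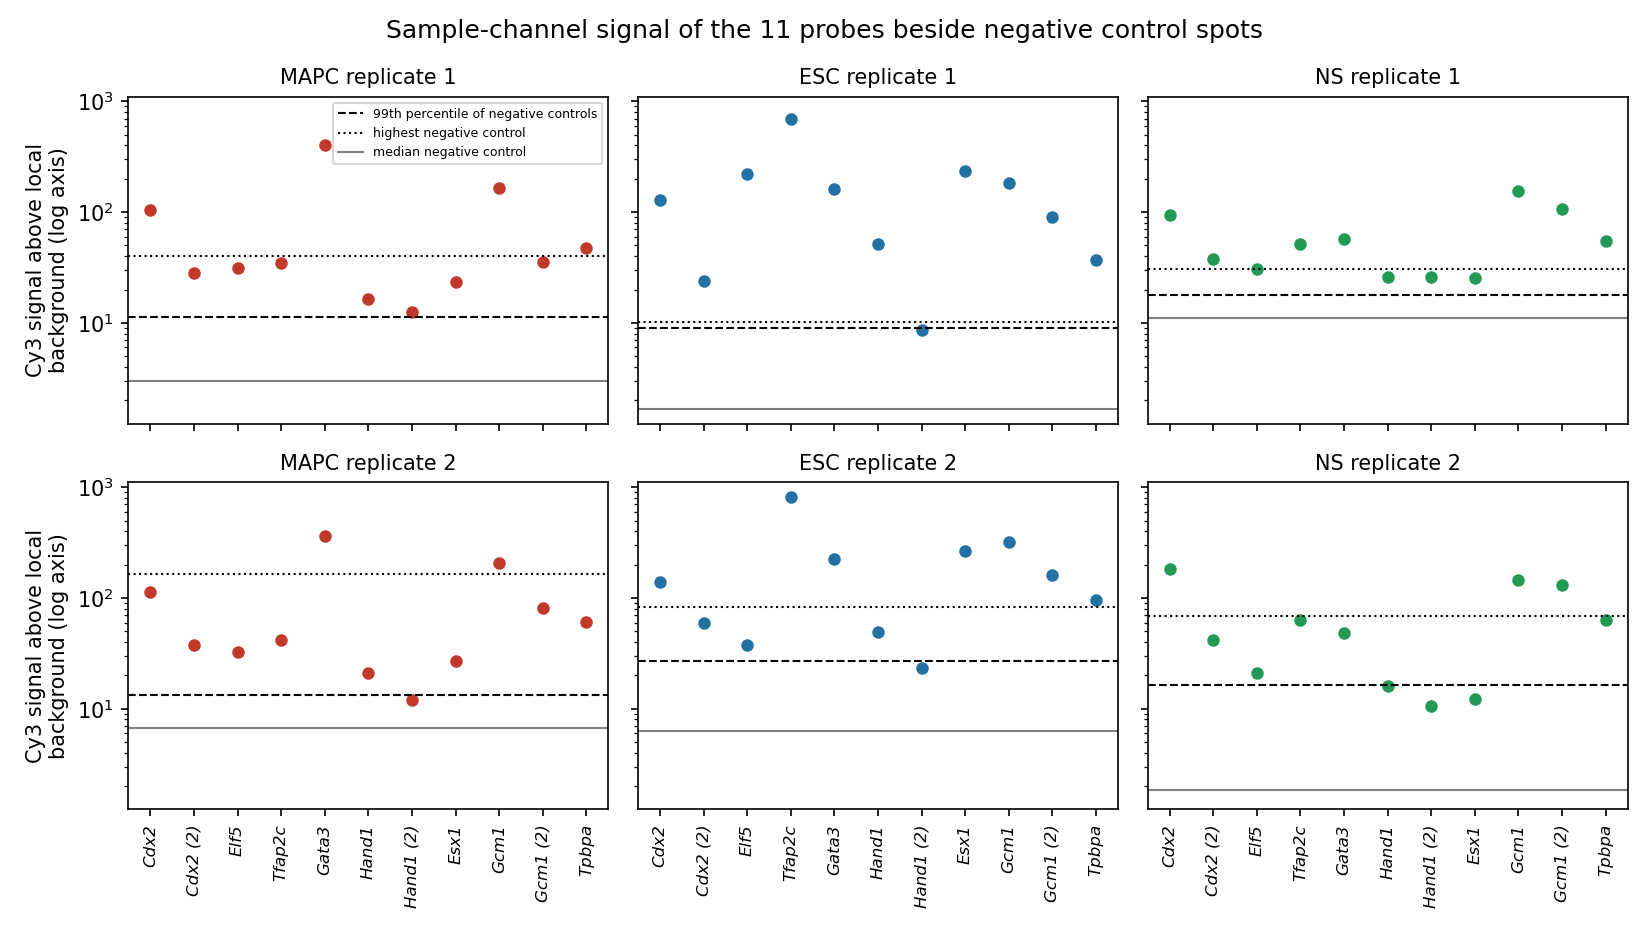
Background-subtracted Cy3 signal (intensity units, log axis) of each of the 11 probes, with 1 panel per array, where (2) marks the dimmer probe of a gene. Lines give the median (grey), the 99th percentile (dashed) and the highest (dotted) of the 314 negative control spots; Tfap2c and Esx1 stand clear of every control spot on the ESC arrays, while on the MAPC and NS arrays Esx1 lies under the highest one.

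A gene was called where its adjusted p from limma, with Benjamini-Hochberg adjustment over all genes tested, was under 0.05. All 8 genes passed the filter on dim probes. Between MAPC and ESC 4 were called, against 38.1% of the 35770 genes tested. Tfap2c, Esx1 and Hand1 were lower in MAPC, as were 22.1% of all genes, and Gata3 was higher, as were 16% of all genes. Between MAPC and NS 1 of the 8 was called, Gata3, which was higher in MAPC, against 43.8% of all genes called and 21.2% called as higher. Between ESC and NS 4 were called, with Tfap2c, Esx1, Gata3 and Hand1 each higher in ESC, against 38.2% of all genes called and 19.8% called as higher. At a difference of at least 2-fold, 2 of the 8 passed between MAPC and ESC, both lower in MAPC (8.58% of all genes, and 5.63% lower). Gata3 passed between MAPC and NS (11.4% of all genes, and 4.44% higher). Tfap2c, Esx1 and Gata3 passed between ESC and NS (8.99% of all genes, and 4.72% higher). The median difference over the 8 genes was -0.22 for MAPC minus ESC, 0.08 for MAPC minus NS and 0.78 for ESC minus NS. The medians over all genes were 0.01, 0.03 and 0.01. The 0.78 is the midpoint of Hand1 at 0.43 and Elf5 at 1.14, and Elf5 was high on 1 of the 2 ESC arrays, as described below. Without that array Elf5 gave 0.12 for ESC minus NS and -0.02 for MAPC minus ESC. Both medians with ESC therefore depend in part on that Elf5 spot. The 3 comparisons share their arrays and are not independent of each other. With 2 arrays per group the smallest p that an exact permutation test can give is 0.333, so the calls rest on limma's estimate of the spread, which is pooled over groups and genes.

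**Figure D2:**
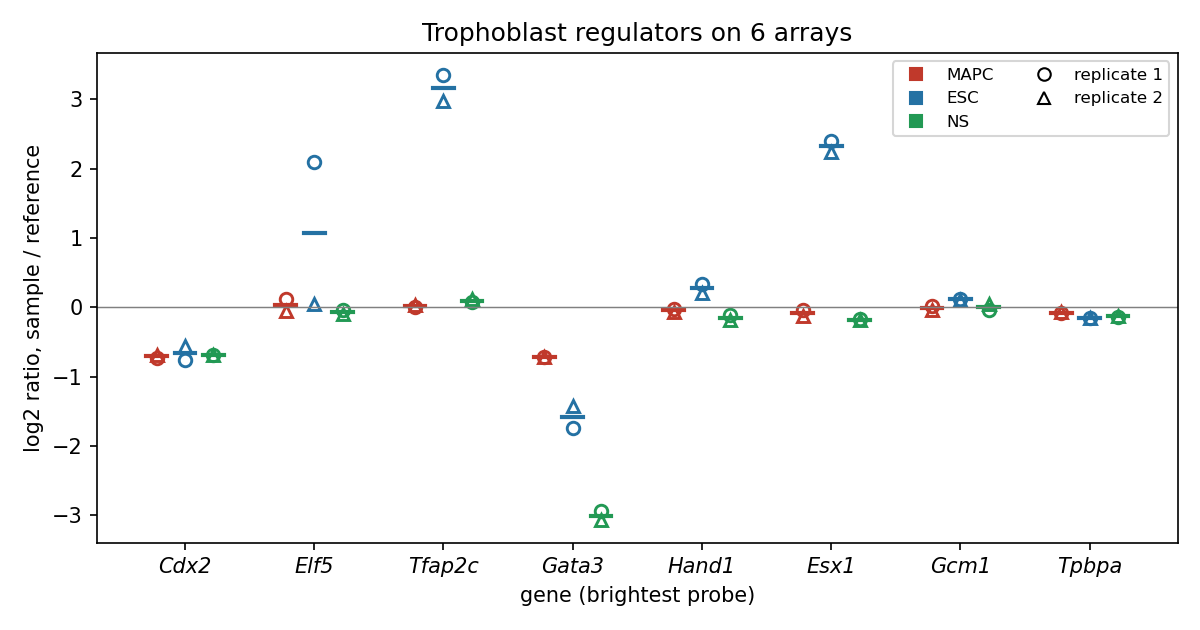
Log2 ratio of sample to reference (vertical axis) for the 8 genes, by the brightest probe of each. Open circles are replicate 1, open triangles replicate 2, and bars the group mean; Tfap2c and Esx1 stand above the reference in ESC, Gata3 descends from MAPC to ESC to NS, and the ESC replicates of Elf5 lie apart at 2.09 and 0.05.

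Tfap2c encodes AP-2 gamma, a transcription factor of trophectoderm and of germ cells. Its log2 ratios were 3.34 and 2.98 on the ESC arrays, 0.01 and 0.03 on the MAPC arrays, and 0.07 and 0.12 on the NS arrays. ESC stood above both other cell types with no overlap, and MAPC and NS lay close together. Tfap2c was lower in MAPC than in ESC by a log2 difference of -3.14 ± 0.109 (moderated SE, limma adjusted p = 4.06e-07), an 8.81-fold difference, and higher in ESC than in NS by 3.07 ± 0.109 (limma adjusted p = 4.53e-07). The files were extracted from the scans on 2 days, 1 array of each kind per day, and the MAPC minus ESC difference was -3.33 on the first day and -2.94 on the second. For MAPC minus NS the difference was -0.07, with a 95% interval from -0.33 to 0.18 (limma adjusted p = 0.628). In background-subtracted signal Tfap2c reached 698 and 812 on the ESC arrays, above every negative control spot, and 34.4 and 41.9 on the MAPC arrays, where 1 control spot was at least as bright. On the NS arrays it gave 51.8 and 63.4, with 0 and 1 control spots as bright. The size of the difference depended on the treatment of background: without background subtraction MAPC minus ESC was -1.82.

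Gata3 encodes a zinc-finger factor of trophectoderm, T cells and several epithelia. It was the gene of the 8 that differed in each comparison, in the order MAPC, ESC, NS from high to low. Its log2 ratios were -0.72 and -0.72 in MAPC, -1.75 and -1.43 in ESC, and -2.94 and -3.07 in NS. No 2 groups overlapped, and on every array the level lay under that of the reference pool. MAPC exceeded ESC by 0.87 ± 0.102 (limma adjusted p = 0.000293), which is 1.83-fold, and NS by 2.29 ± 0.102 (limma adjusted p = 9.27e-07), which is 4.88-fold. ESC exceeded NS by 1.42 ± 0.102 (limma adjusted p = 1.70e-05). Within days the MAPC minus ESC difference was 1.03 and 0.71, and the MAPC minus NS difference 2.22 and 2.35. The signal was 402 and 362 in MAPC and 163 and 225 in ESC, above every control spot of those arrays. In NS it was 56.7 and 48.2, with 0 and 1 control spots as bright. Without background subtraction the difference was 0.48 for MAPC minus ESC, 1.04 for MAPC minus NS and 0.56 for ESC minus NS, each still called.

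Cdx2, the caudal-type homeobox factor of trophectoderm and later of gut, passed no test. Its brighter probe gave log2 ratios of -0.72 and -0.69 in MAPC, -0.76 and -0.55 in ESC, and -0.69 and -0.69 in NS. The 3 groups overlapped. The 95% interval of the difference ran from -0.22 to 0.12 for MAPC minus ESC, from -0.19 to 0.16 for MAPC minus NS and from -0.14 to 0.21 for ESC minus NS. That probe gave signals from 93.9 to 184 and exceeded every negative control spot on 5 of 6 arrays. The dimmer Cdx2 probe gave 23.6 to 58.9 and log2 differences of 0.01, 0.01 and 0.00 in the 3 comparisons, with no call.

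Elf5 encodes an ETS-family factor that sustains trophoblast stem cells. Its log2 ratios were 2.09 and 0.05 on the ESC arrays, 0.12 and -0.05 on the MAPC arrays, and -0.04 and -0.10 on the NS arrays. The first ESC array stood alone, and the second overlapped with MAPC. Elf5 was therefore not called: MAPC minus ESC was -1.04 with a 95% interval from -2.29 to 0.22 (limma adjusted p = 0.181), and ESC minus NS was 1.14 with an interval from -0.11 to 2.40 (limma adjusted p = 0.149). The gap of 2.04 between the ESC replicates was matched or exceeded by 11 of 35685 genes, Elf5 included, and the median gap between those arrays was 0.07. In background-subtracted signal Elf5 gave 221 and 38.0 in ESC, 31.1 and 32.7 in MAPC, and 30.8 and 20.9 in NS. The control spots at least as bright numbered 0 and 2 in ESC, 1 and 1 in MAPC, and 0 and 1 in NS. Elf5 exceeded the 99th percentile of the controls on 6 arrays and the highest control spot on 2.

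The spots around Elf5 on the first ESC array also had high ratios of sample to reference. The Elf5 spot lies 1 row from the last row of the array. The 9 probe spots within 2 rows and 2 columns of it had a median log2 ratio of 0.83 there and 0.04 on the second ESC array, while the same median around the other members and on the other arrays ranged from -0.16 to 0.45. The median background-subtracted Cy3 signal of these 9 spots was 516 on the first ESC array and 492 on the second. Within 10 rows and 10 columns, 18 of 114 probe spots, or 15.8%, were at least 2-fold higher on the first ESC array than on the second, against 0.0319% of spots elsewhere. The Elf5 spot itself is counted among the 18 and the 114. In MAPC and in NS 0 of 120 such spots were. The local background beside the Elf5 spot was 373 units on the first ESC array, where the 99th percentile over the array was 363, and 360 on the second. Without the first ESC array Elf5 gave -0.02 for MAPC minus ESC and 0.12 for ESC minus NS, with limma adjusted p = 0.906 and 0.373. Without the second it gave -2.06 and 2.16, with limma adjusted p = 5.26e-06 and 4.40e-06. Elf5 was the sole gene of the lists used here with a probe in that window.

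**Figure D3:**
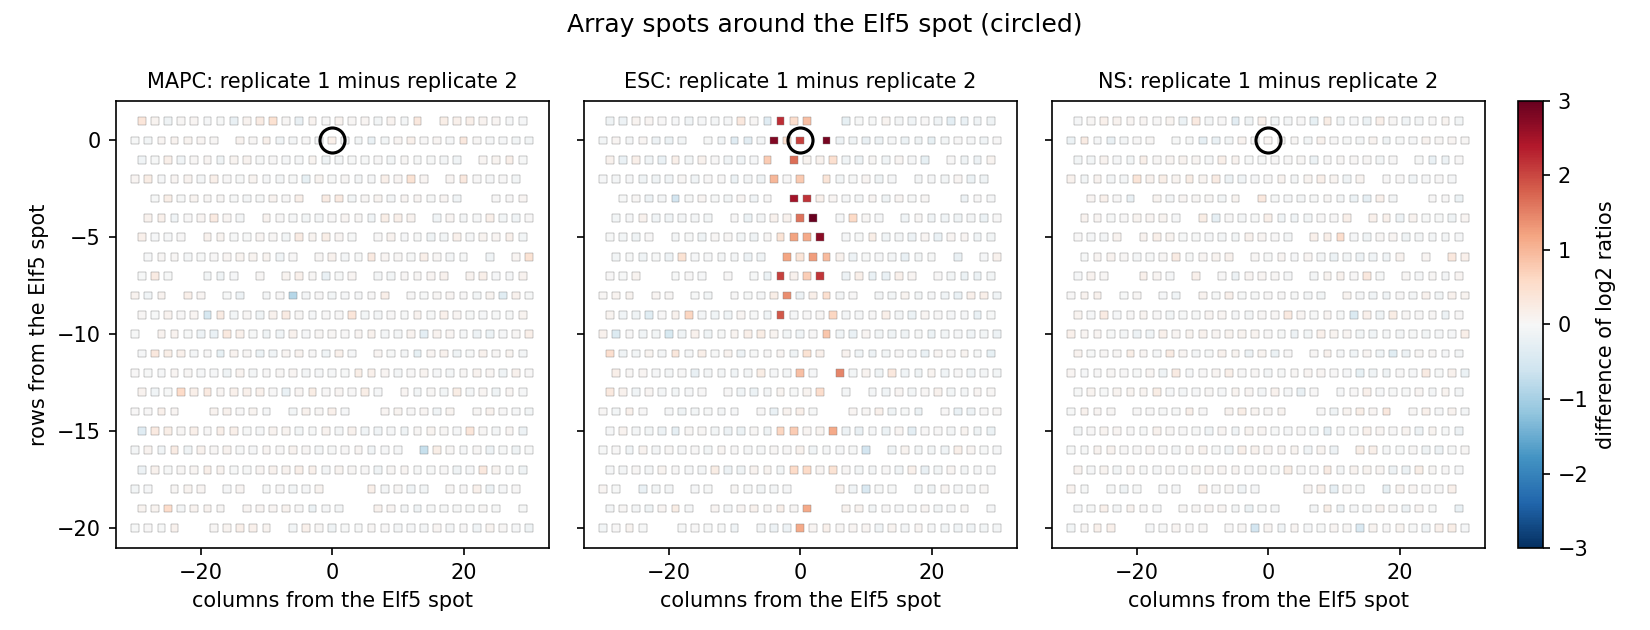
Difference of log2 ratios between replicate 1 and replicate 2 (colour scale, limited to 3 in either direction) for the array spots around the Elf5 spot, which is circled, by rows and columns from it. A patch of red spots around and below the circle appears in the ESC panel, where 18 of 114 spots within 10 rows and columns, Elf5 included, are at least 2-fold higher on replicate 1, and the MAPC and NS panels show no such patch.

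Of the 4 genes of the placental layers, Esx1 had the largest differences. Esx1 is an X-linked homeobox gene of the labyrinth and of male germ cells. Its log2 ratios were 2.40 and 2.24 in ESC, -0.03 and -0.13 in MAPC, and -0.16 and -0.19 in NS. ESC stood apart from both other cell types with no overlap. Esx1 was lower in MAPC than in ESC by -2.40 ± 0.0696 (limma adjusted p = 1.75e-07), a 5.30-fold difference, and higher in ESC than in NS by 2.50 ± 0.0696 (limma adjusted p = 1.58e-07). The MAPC minus ESC difference was -2.44 on the first extraction day and -2.37 on the second. For MAPC minus NS it was 0.10 with a 95% interval from -0.07 to 0.26 (limma adjusted p = 0.320). In signal Esx1 gave 233 and 266 in ESC, above every control spot, and 23.4 and 26.8 in MAPC, with 1 control spot as bright on each array. In NS it gave 25.5 and 12.1, with 2 and 10 control spots as bright. The sizes depended on the background correction. MAPC minus ESC was -3.35 with the deposited processed signals and -0.92 without background subtraction. Over 16 alternatives ESC minus NS ran from 0.95 to 3.64, and the signal on the second NS array lay under the 99th percentile of its controls, which was 16.5. Both differences were called in each alternative.

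Hand1, the basic helix-loop-helix factor of giant cells and of heart and extraembryonic mesoderm, changed little and by 1 of its 2 probes. The brighter probe had log2 ratios of 0.34 and 0.21 in ESC, -0.02 and -0.07 in MAPC, and -0.12 and -0.18 in NS. ESC lay above the others with no overlap. By that probe MAPC minus ESC was -0.32 ± 0.0634 (limma adjusted p = 0.00475) and ESC minus NS was 0.43 ± 0.0634 (limma adjusted p = 0.00103), while MAPC minus NS was 0.10 and not called. The dimmer probe gave 0.03, -0.05 and -0.03 for the same 3 comparisons and was called in none of them. With the mean of both probes the calls were lost, at -0.15 (limma adjusted p = 0.147) for MAPC minus ESC and 0.19 (limma adjusted p = 0.0771) for ESC minus NS. The brighter probe gave 51.4 and 49.4 units in ESC, with 0 and 2 control spots as bright, and from 15.9 to 26.1 on the other arrays. The dimmer probe gave 8.64 to 25.7 units and exceeded the 99th percentile of the controls on 2 of 6 arrays. The direction for Hand1 therefore rests on 1 dim probe.

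Gcm1, the factor that starts branching of the labyrinth and formation of its syncytium, passed no test with either probe under the main settings. By the brighter probe its log2 ratios were 0.02 and -0.04 in MAPC, 0.12 and 0.11 in ESC, and -0.04 and 0.05 in NS. ESC lay above the other arrays without overlap, and MAPC and NS overlapped. The 95% intervals were -0.25 to 0.01 for MAPC minus ESC, -0.14 to 0.12 for MAPC minus NS and -0.02 to 0.24 for ESC minus NS. Its signal ran from 144 to 323 units and exceeded every control spot on the 6 arrays. The dimmer Gcm1 probe gave differences of 0.00, 0.12 and 0.12 in the same order. Over 16 alternatives MAPC minus ESC ran from -0.15 to -0.0033, MAPC minus NS from -0.06 to 0.54 and ESC minus NS from 0.07 to 0.55. At least 1 alternative called Gcm1 in each comparison.

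Tpbpa, the trophoblast-specific protein that marks spongiotrophoblast, gave log2 ratios of -0.08 and -0.07 in MAPC, -0.15 and -0.15 in ESC, and -0.14 and -0.13 in NS. MAPC lay above the other arrays, which did not overlap with each other either, but all 6 values fell within a narrow range. The differences were 0.08 for MAPC minus ESC (95% interval -0.04 to 0.19), 0.06 for MAPC minus NS (-0.06 to 0.17) and -0.02 for ESC minus NS (-0.14 to 0.10), and limma called none. Its signal ran from 36.9 to 96.7 units and exceeded the highest control spot on 4 of 6 arrays.

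**Figure D4:**
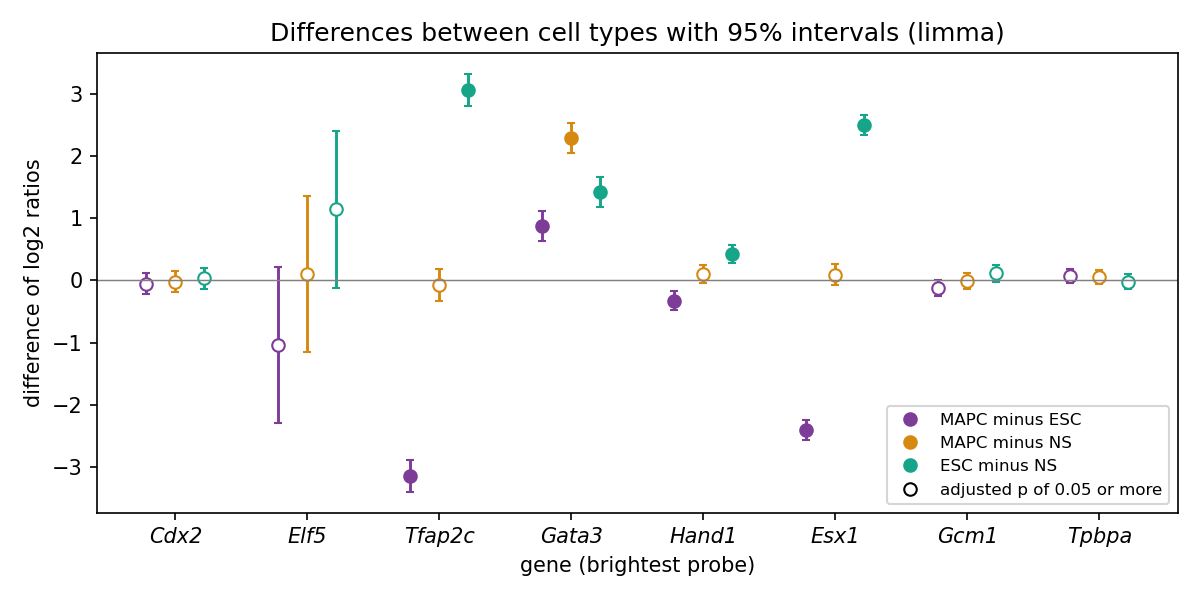
Difference of log2 ratios between cell types for the 8 genes (brightest probe), with 95% intervals from limma. Filled points have an adjusted p under 0.05 and open points do not; Tfap2c and Esx1 lie near 3 and 2.5 units from 0 in both comparisons with ESC and near 0 for MAPC minus NS, and Elf5 has the widest intervals.

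Other genes of the same pathway were taken from lists, and their counts are read against the share of all genes called, 38.1% for MAPC minus ESC, 43.8% for MAPC minus NS and 38.2% for ESC minus NS. Of 8 measured genes that act at the entry to the lineage, 2 were higher and 4 lower in MAPC than in ESC (median -0.19), where 16% of all genes were higher and 22.1% lower. Against NS 2 were higher and 3 lower in MAPC, and between ESC and NS 3 were higher and 1 lower in ESC. Klf5, a factor of trophectoderm and of embryonic stem cells, had log2 ratios of 2.98 and 3.15 in MAPC, 2.36 and 2.33 in ESC, and -0.33 and -0.40 in NS. Arid3a, which acts in trophoblast stem cells, was at 0.83 and 0.74 in MAPC, -0.02 and -0.14 in ESC, and -1.51 and -1.41 in NS. Both genes fell in the order MAPC, ESC, NS, as Gata3 did, with each step called by limma. Id2, an inhibitor of helix-loop-helix factors, ran otherwise, at -3.80 and -3.30 in MAPC, -1.12 and -1.01 in ESC, and -0.14 and -0.17 in NS. Its MAPC minus ESC difference was -2.48 (limma adjusted p = 5.62e-06). Tead4, Eomes, Wwtr1, Bmp4 and Bmpr1a had no named probe and were not analysed here.

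Among 7 measured labyrinth and syncytium genes 3 were higher and 2 lower in MAPC than in ESC (median 0.05). Against NS the counts were again 3 and 2, and 3 were higher and 1 lower in ESC than in NS. The corresponding shares of all genes called were 38.1%, 43.8% and 38.2%. The monocarboxylate transporters of the syncytial layers moved in opposite directions. Slc16a1 was at 2.70 and 2.85 in MAPC, 1.25 and 1.06 in ESC, and 0.53 and 0.46 in NS, although its dimmer probe was called in no comparison (0.11 for MAPC minus ESC). Slc16a3 was at -0.40 and -0.44 in MAPC, 2.05 and 1.59 in ESC, and 2.31 and 2.23 in NS. These transporters also carry lactate in most tissues. Cebpb, a leucine-zipper factor, was lower in MAPC than in ESC by -2.51 (limma adjusted p = 6.98e-06).

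Among 8 measured spongiotrophoblast and giant cell genes 3 were lower and 0 higher in MAPC than in ESC (median -0.19), a share close to the 38.1% of all genes called. The count of higher genes was also 0 at an unadjusted p under 0.05 in limma, and 3 were lower. Plac8, named for the placenta but also active in myeloid cells, was at 1.76 and 1.67 in ESC, -2.15 and -2.07 in MAPC, and -2.61 and -2.61 in NS. Cdkn1c, an imprinted cell-cycle inhibitor, was at 3.33 and 3.21 in ESC and 3.73 and 3.72 in NS, but at -0.06 and 0.00 in MAPC. Phlda2, an imprinted gene that restrains placental growth, was at 2.84 and 2.70 in MAPC and 2.81 and 2.93 in ESC, which overlapped, and at -0.03 and -0.03 in NS. Its MAPC minus ESC difference of -0.10 ran from -2.03 to 0.13 over 17 settings, the main fit included, and was called in 2 of them. The placental hormone gene Prl3b1 was called in none of the 3 comparisons, with 0.01 for MAPC minus ESC. Prl2c2, a giant cell hormone with near-identical copies in the genome, gave -0.19 without a call by its brightest probe and -1.50 (limma adjusted p = 4.58e-06) by the other, so its level is unsettled.

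Simple-epithelium genes, which trophectoderm shares with other epithelia, split between MAPC and ESC, with 3 of 6 higher and 3 lower. Both cell types stood above NS, with 5 of 6 higher in MAPC and 6 of 6 in ESC, where 21.2% and 19.8% of all genes were higher. Krt18, a keratin of simple epithelia, was higher in MAPC than in NS by 5.77 (limma adjusted p = 1.28e-08) and higher in ESC than in NS by 3.06 (limma adjusted p = 3.71e-07), with the 3 cell types in the order of Gata3. Its partner keratin Krt8 had the same order, at 3.33 and 3.30 in MAPC, -0.40 and -0.17 in ESC, and -1.59 and -1.60 in NS. Cdh1, the adhesion protein E-cadherin, was at 3.30 and 3.30 in ESC, 0.11 and 0.01 in MAPC, and -0.24 and -0.16 in NS. It was called in all 3 comparisons, with 0.26 for MAPC minus NS (limma adjusted p = 0.0091). Epcam, another epithelial adhesion protein, was at 1.63 and 1.62 in ESC, -0.27 and -0.55 in MAPC, and -3.25 and -3.39 in NS.

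Relatives from the gene families of the 8 genes were also measured. Of 16 relatives tested 1 was higher and 5 lower in MAPC than in ESC, 6 higher and 2 lower in MAPC than in NS, and 5 higher and 1 lower in ESC than in NS. These shares, 6 of 16, 8 of 16 and 6 of 16, lie near the shares of all genes called, which were 38.1%, 43.8% and 38.2%. Of the AP-2 family, Tfap2b was at 2.16 and 2.07 in NS, -0.02 and -0.08 in MAPC, and 0.04 and -0.11 in ESC, and so was higher in NS than in both others, whereas Tfap2c was higher in ESC. Tfap2e was called in no comparison. Of the ETS relatives of Elf5, Elf3 was at 1.46 and 1.20 in MAPC and 1.39 and 1.29 in ESC, which overlapped, and at -0.56 and -0.73 in NS. Elf3 is a factor of epithelia. The relative called as higher in MAPC than in ESC was Elf1, by 0.51, and it was higher in MAPC than in NS by 0.74. Ehf was called between MAPC and NS alone, higher in MAPC by 0.24. Elf2 and Elf4 were called in no comparison.

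Gata2, which acts with Gata3 in trophoblast, had the opposite order between MAPC and ESC. It was at -0.55 and -0.18 in ESC, -1.77 and -1.69 in MAPC, and -1.49 and -1.52 in NS, and MAPC minus ESC was -1.36 (limma adjusted p = 3.71e-05). Gata1 was called for MAPC minus ESC alone, at -0.23, and Gata5 was called in no comparison. The X-linked homeobox genes of the Rhox cluster, which like Esx1 are used in placenta and reproductive tract, were high in MAPC and in ESC. Rhox5 was at 2.71 and 2.64 in MAPC, 2.58 and 2.56 in ESC, and -3.06 and -2.95 in NS. Its MAPC minus ESC difference was 0.11 (limma adjusted p = 0.221) and its MAPC minus NS difference was 5.68 (limma adjusted p = 4.19e-09). Rhox6 was at 1.90 and 1.65 in MAPC, 2.77 and 2.26 in ESC, and -0.28 and -0.27 in NS. Rhox9 was at 2.15 on the first MAPC array, its second MAPC spot being left out as an outlier, and at 3.73 and 3.33 in ESC and -0.01 and 0.00 in NS. MAPC thus held Rhox transcripts above NS, while Esx1 in MAPC differed from NS by 0.10 and was not called. The Cdx relatives Cdx1 and Cdx4 were called in no comparison, as was Cdx2. Hand2, with log2 differences of -0.37 for MAPC minus ESC and -0.32 for MAPC minus NS, was lower in MAPC in both. Gata4 and Gata6 had no named probe and were not analysed here.

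**Figure D5:**
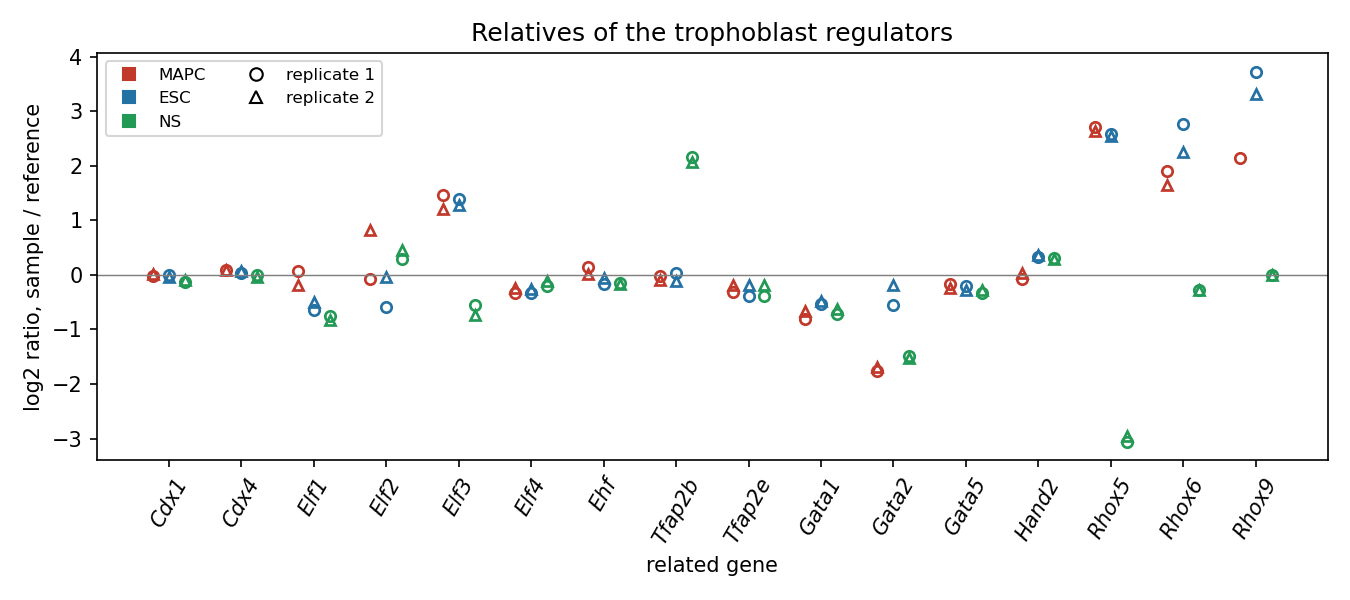
Log2 ratio of sample to reference for 16 relatives of the 8 genes, with circles for replicate 1 and triangles for replicate 2. Tfap2b is high in NS, Elf3 and the 3 Rhox genes are above NS in both MAPC and ESC, and 1 point of Rhox9 is missing because its spot was left out.

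The genes whose pattern over the 6 arrays lay nearest to each changed gene were found among 11978 named genes, by the root mean square distance between log2 ratios after each gene's mean was subtracted. For Tfap2c these were Ly6c1 (distance 0.0641), Gdf3 (0.104) and Krt17 (0.118). Gdf3, a TGF-beta family ligand of pluripotent cells, was at 3.03 and 2.96 in ESC, -0.05 and 0.02 in MAPC, and -0.04 and -0.04 in NS. For Esx1 they were Ctla2a (0.0760), Itgb7 (0.0885) and Hpn (0.0901). For Gata3 they were Abcb1b (0.106), Rab4a (0.125) and Hbegf (0.130), a growth factor that binds the EGF receptor, with 1.39 and 1.32 in MAPC, 0.49 and 0.94 in ESC, and -0.62 and -0.69 in NS. With 6 arrays many genes can share a shape, so these distances describe likeness and carry no test.

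Several marker lists of other cell types also differed between ESC and the other cells, while a blood list differed little. The counts below stand beside these shares of all genes called. In MAPC 22.1% were lower and 16% higher than in ESC, and 19.8% were higher in ESC than in NS. Between MAPC and NS 43.8% were called, and 21.2% were higher in MAPC. Of 6 fibroblast genes, a list chosen because ESC grow on fibroblast feeders, 5 were lower in MAPC than in ESC and 5 were higher in ESC than in NS. Between MAPC and NS 5 of the 6 were lower in MAPC, by unequal amounts. The log2 difference was -2.69 for Postn and -3.28 for Fbln2, but -0.21 for Col1a1, -0.32 for Col1a2 and -0.21 for Lox. The mean log2 ratio of the 6 genes was 0.28 and 0.21 on the ESC arrays, -2.66 and -2.68 on the MAPC arrays, and -1.54 and -1.59 on the NS arrays. The matrix protein gene Postn reached 3.06 and 2.32 in ESC. Of 6 germ line genes 4 were lower and 1 higher in MAPC than in ESC, with means of 1.26 and 1.20 in ESC, 0.42 and 0.39 in MAPC, and 0.05 and 0.10 in NS. Between MAPC and NS 2 were higher and 1 lower in MAPC. The log2 differences were 2.34 for Kit, 0.22 for Dazl and -0.81 for Prdm1, so the MAPC mean leans on Kit. By its dimmer probes Kit gave 1.53 and -0.69. Dppa3, at 4.22 and 4.17 in ESC, stands in this list and in the pluripotency list. Of 9 pluripotency genes 9 were lower in MAPC than in ESC, with means of 3.74 and 3.59 in ESC, 0.45 and 0.46 in MAPC, and 0.55 and 0.51 in NS. Between MAPC and NS 3 of the 9 were higher and 1 lower in MAPC, so these near-equal means combine opposite differences. Sox2 was the lower one, with a log2 difference of -5.64, and Zfp42 was the furthest of the higher ones, at 3.17. The primitive endoderm list was highest in MAPC, as Gata3 was, and 8 of 8 of its genes were higher in MAPC than in ESC and than in NS. The means of this list were 3.04 and 3.10 in MAPC, -0.09 and -0.06 in ESC, and -0.65 and -0.67 in NS. The steps differed in size. The median difference of the list was 2.68 for MAPC minus ESC and 0.48 for ESC minus NS, where Gata3 gave 0.87 and 1.42. Of 5 blood genes 1 was lower in MAPC than in ESC, 0 were called between MAPC and NS, and 1 was higher in ESC than in NS. The part of these cell types in the levels of the 8 genes was not tested.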

How the data were processed

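The deposited scanner files give, per spot and dye, mean and local background intensity, a background-subtracted and a processed intensity, and a log10 ratio, as the authors' Agilent Feature Extraction A.7.5.1 wrote them per the file headers. The authors' deposited series matrix holds log10 values whose column medians run from 2.95 to 2.97. For 93.9% of the spots with all 6 values above a floor of 2, the matrix equals the deposited log10 ratio plus a constant of the spot (tolerance 0.001 on every array). Its centring stays unknown, and it served as an alternative.

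Mean and background intensities were corrected with normexp (offset 50), then loess-normalized array by array in limma 3.58.1 (R 4.3.3; files read with the package data.table, version 1.17.8) and turned to log2 of Cy3 over Cy5. Control and outlier spots were left out. Of 41006 probes 15294 were named through an accession in a table of RefSeq genes, 23 through a symbol and 112 through an older symbol; 25577 stayed unnamed. The brightest probe stood for a gene. Genes entered the test when the probe had the well-above-background mark on both arrays of at least 1 group (35785 genes, 12154 of them named). All 6 arrays entered a single lmFit and eBayes fit with 3 residual degrees of freedom, two-sided, with Benjamini-Hochberg adjustment within a comparison.

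The 8 genes and the lists of related genes were chosen with earlier results of these data known. Named from each of 5 lists were up to 3 genes with the largest difference among those called, any relative of the 8 genes, and the 3 genes nearest in pattern to each of the 8 that was called at 2-fold; Cdh1, Postn, Prl2c2, Prl3b1 and the genes without a probe were named after values were seen. Deviations of same-numbered arrays from their group means correlated by 0.101 to 0.207 between groups, and the number coincides with the day of image extraction in the file headers. Alternatives were other background corrections, the sample channel alone, other filters, the mean of probes, a replicate block, 2 groups at a time, the series matrix and leaving out each array.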

Additional observations from a re-analysis of the deposited data

How the results depend on the processing

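Leaving out each array in turn gave 2 to 4 genes of the 8 at least 2-fold between MAPC and ESC and 3 to 4 between ESC and NS, and 4 to 5 called in each of these comparisons; the additional gene called was Elf5, without ESC replicate 2. MAPC minus NS kept a count of 1. Where an array was left out the lone array of its group was assumed to vary like the others. Without background subtraction 1 gene remained at 2-fold in MAPC minus ESC (main value 2) and 1 in ESC minus NS (main value 3). With the sample channel alone 3 genes were called between MAPC and NS (main value 1), with Esx1 at 0.41 and Gcm1 at 0.54 (limma adjusted p = 0.0292), the latter reversing a difference of -0.01; the cause was not tested. Over 16 alternatives Tfap2c, Esx1 and Gata3 kept direction and call: MAPC minus ESC ran from -3.53 to -1.82 for Tfap2c, -3.35 to -0.92 for Esx1 and 0.48 to 1.08 for Gata3. With the replicate block, which equals the image-extraction day, MAPC minus ESC kept 4 calls among the 8 genes, MAPC minus NS 1 and ESC minus NS 4, and no call changed. Over all genes the sample channel alone called 8832 between MAPC and ESC (main value 13630), and without background subtraction 1552, 2209 and 1667 genes differed by 2-fold in the comparisons of MAPC with ESC, of MAPC with NS and of ESC with NS (main values 3068, 4090 and 3216). Leaving out the spots within 10 rows and columns of the Elf5 spot on ESC replicate 1, an alternative chosen after seeing the data, kept each of these counts over the 8 genes.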
